A study of Mus musculus with 8 samples.

Results

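The 7 protein subunits of respiratory complex I that mouse mitochondrial DNA encodes are ND1, ND2, ND3, ND4, ND4L, ND5 and ND6, and their transcripts were followed in retinas of PD-L1 knockout and control mice. They were taken as the 7 rows, of 25477 genes in the count table, that carry these symbols. The family was selected on measured values, namely the counts per library, each gene's share of all ND counts and the comparison of knockout with control, so the differences between groups are given for the 7 genes as a description, with no test. Polyadenylated RNA was sequenced from 8 retina samples of mice with choroidal neovascularization (CNV), a growth of choroidal vessels under the retina. The titles call 4 of them KO-CNV, with the genotype PD-L1 knockout, and 4 WT-CNV, with the genotype control. Age, sex, strain, the way and time of CNV induction and the knockout allele are not given in the labels, and they do not state whether each sample was a different animal. The p-values given for other genes therefore measure only the spread between these libraries, which may be technical.

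Complex I takes electrons from NADH and passes them to ubiquinone while it pumps protons across the inner mitochondrial membrane. Its hydrophilic arm, where NADH is oxidised, is made of nuclear-encoded proteins, whereas the ND proteins form the core of the membrane arm. ND2, ND4 and ND5 are the antiporter-like pumping subunits, ND1 forms the base of the ubiquinone pocket, and ND3, ND4L and ND6 lie between them, with a loop of ND3 reaching to the pocket. Mitochondrial genes are copied into long transcripts of the whole strand, and most mRNAs are freed by cutting out the tRNAs that flank them. ND6 alone among the ND genes is read from the opposite strand. Photoreceptors pack many mitochondria into their inner segments.

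The libraries held 31743404 to 36438248 counts. Cd274, the gene of PD-L1, had 9 to 15 counts in the knockouts and 117 to 165 in the controls. Gnat1, the transducin alpha subunit of rods, was at 9069, 10192, 11725 and 7540 CPM (counts over library size after TMM adjustment, times 1e6) in knockouts 1 to 4 and at 7609, 7383, 7463 and 10241 CPM in controls 1 to 4. Müller glia genes (5 of 5 present) summed to 2652 to 3837 CPM in the knockouts and 2716 to 3405 CPM in the controls. Lens genes, 20 of 20 present with none at 0 in all libraries, summed to 1934 to 6851 CPM in knockout 3 and controls 2 and 3 and to 4.78 to 51.9 CPM in the other 5 libraries. Microglial genes (8 of 8 present) summed to 110 to 147 CPM in the knockouts and 55.2 to 87.3 CPM in the controls, pigment epithelium genes (6 of 6) to 125 to 274 and 70.1 to 158 CPM, and red blood cell genes (5 of 5) to 1.68 to 4.03 and 10.1 to 14.5 CPM. Which cells the ND transcripts came from, and the part of these other cell types in the ND values, was not tested. Fewer cells of a type and less RNA per cell cannot be told apart in whole tissue.

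ND3 carried the largest difference of the family, and its sequence bears on what its counts can mean. ND3 (Entrez gene 17718) lies on the mitochondrial chromosome at 9459 to 9806 of the GRCm38 assembly (mm10), is 348 bases long and consists of a single coding exon between the tRNA genes for glycine and arginine. GENCODE M21, the annotation of that assembly used here, places a pseudogene named Gm28438 on chromosome 1 at 24612775 to 24613119, on the minus strand. Over the 345 bases that the pseudogene covers the alignment had 1 mismatch, T3C (ND3 has the first base, the pseudogene the second, counted from the first base of each gene), an identity of 99.7%. The first 300 bases of each are shown, 5′ to 3′ and from the GENCODE M21 transcripts. Within the annotated copy, sequence can tell a read of ND3 from the copy only at this base, which is the capital letter. The nuclear sequence past the annotated end of the copy was not compared.
ND3: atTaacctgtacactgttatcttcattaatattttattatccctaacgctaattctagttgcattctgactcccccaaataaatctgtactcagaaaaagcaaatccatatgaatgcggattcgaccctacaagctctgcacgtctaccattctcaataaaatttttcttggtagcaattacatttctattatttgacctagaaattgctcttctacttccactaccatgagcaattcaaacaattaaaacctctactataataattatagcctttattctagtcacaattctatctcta
Gm28438: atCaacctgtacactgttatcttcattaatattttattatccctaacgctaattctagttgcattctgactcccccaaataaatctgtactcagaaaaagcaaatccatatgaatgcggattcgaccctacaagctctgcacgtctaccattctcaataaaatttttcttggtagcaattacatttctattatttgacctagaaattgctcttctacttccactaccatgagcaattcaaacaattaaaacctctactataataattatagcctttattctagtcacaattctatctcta

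Of the 249 windows of 100 bases inside ND3, 243 (97.6%) were found word for word in a transcript of a nuclear gene. The remaining 6 were those over base 3 and those over the last 3 bases, past the annotated end of the copy, where the nuclear sequence was not searched. With windows of 150 bases 193 of 199 were shared. The read length of the libraries, and how reads with more than 1 equally good placement were counted, are not stated in the sources used. None of the 8 listed candidates for nuclear copies of mitochondrial genes, Gm28438 among them, has a row in the count table. ND3 counts are therefore uncertain as a measure of ND3 transcript. The base each library carried at position 3 cannot be read from a count table, and the part of read placement in the difference between groups was not tested.

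The other ND genes differed in how much of them has such a copy. ND4L (mitochondrial chromosome, 9877 to 10173) matched the pseudogene Gm10222 on chromosome 1 (24612407 to 24612700) without a mismatch over 294 bases, and 98.5% of its windows of 100 bases were shared. ND4 (10167 to 11544), which overlaps ND4L by 7 bases, was identical over its first 876 bases to Gm28439 (24611535 to 24612410), with 60.8% of windows shared. These copies belong to a row of 7 pseudogenes, from 24611535 to 24616197 on chromosome 1, that runs from part of ND4 to part of COX1. For ND2 (3914 to 4951) the share was 3.2%, from Gm13339 on chromosome 2, which differs from it at 17 of 510 aligned bases. ND1 (2751 to 3707), ND5 (11742 to 13565) and ND6 (13552 to 14070, minus strand) shared no window of 100 bases with an annotated nuclear transcript. With windows of 50 bases ND5 shared 7.6% and ND2 8.2%, and ND1 and ND6 again shared none. ND5 and ND6 overlap by 14 bases on opposite strands, and the strand setting of the counting is not given, so reads of that overlap cannot be told apart.

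In counted reads per base of gene the 7 genes formed a high and a low set. FPKM, the authors' counts scaled to library total and gene length, put genes of different length on one scale. They rank counted reads, and how reads with several equally good placements were counted is not stated. ND3, ND4L and part of ND4 have nuclear copies, so the places of these genes are uncertain as an order of transcripts. In the controls ND1 led at 9096 ± 2407 FPKM (SD, n = 4), followed by ND5 at 3566 ± 779, ND2 at 3545 ± 569 and ND4 at 3068 ± 851 FPKM. ND6 followed at 137 ± 72.4, ND3 at 95.4 ± 28.1 and ND4L at 23.0 ± 8.78 FPKM. ND1 lay above ND5 in 4 of 4 controls without overlap of their ranges. ND5, ND2 and ND4 were not separated beyond their spread, and neither were ND6 and ND3, with ND6 above ND3 in 3 of 4 controls. ND3 lay above ND4L in all 4 controls without overlap.

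In the knockouts the order was the same down to ND6 and then changed. ND1 was at 6108 ± 1093 FPKM, ND5 at 2552 ± 584, ND2 at 2343 ± 554, ND4 at 2298 ± 343 and ND6 at 63.3 ± 24.8 FPKM. ND4L came next at 13.5 ± 6.03 FPKM and ND3 was last at 11 ± 3.92 FPKM, with overlapping ranges and ND4L the higher in 3 of 4 libraries. The FPKM length of each gene equalled its annotated length, so the order does not rest on a different length in the authors' scaling.

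Low levels and nuclear copies coincided for some genes only. Among the 13 mRNAs of the mitochondrial genome, the 5 with over 90% of windows shared (COX2, ATP6, COX3, ND3 and ND4L) lay between 5.24 and 299 FPKM over the 8 libraries. ND1, ND2, ND4 and ND5, with COX1 and CYTB, lay between 1695 and 16330 FPKM. ND4 reached 1844 to 3803 FPKM with 60.8% of its windows shared, and its copy covers only the first 876 of its 1378 bases. ND6, with no shared window, was low at 48.0 to 230 FPKM, as was ATP8 at 1.87 to 23.6 FPKM, which lies opposite a stretch of 233 bases between pseudogenes that was not searched because the annotation names no transcript there. These are values across genes of the same libraries, which share depth and are not independent. The part of read placement in these levels was not tested.

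**Figure D1:**
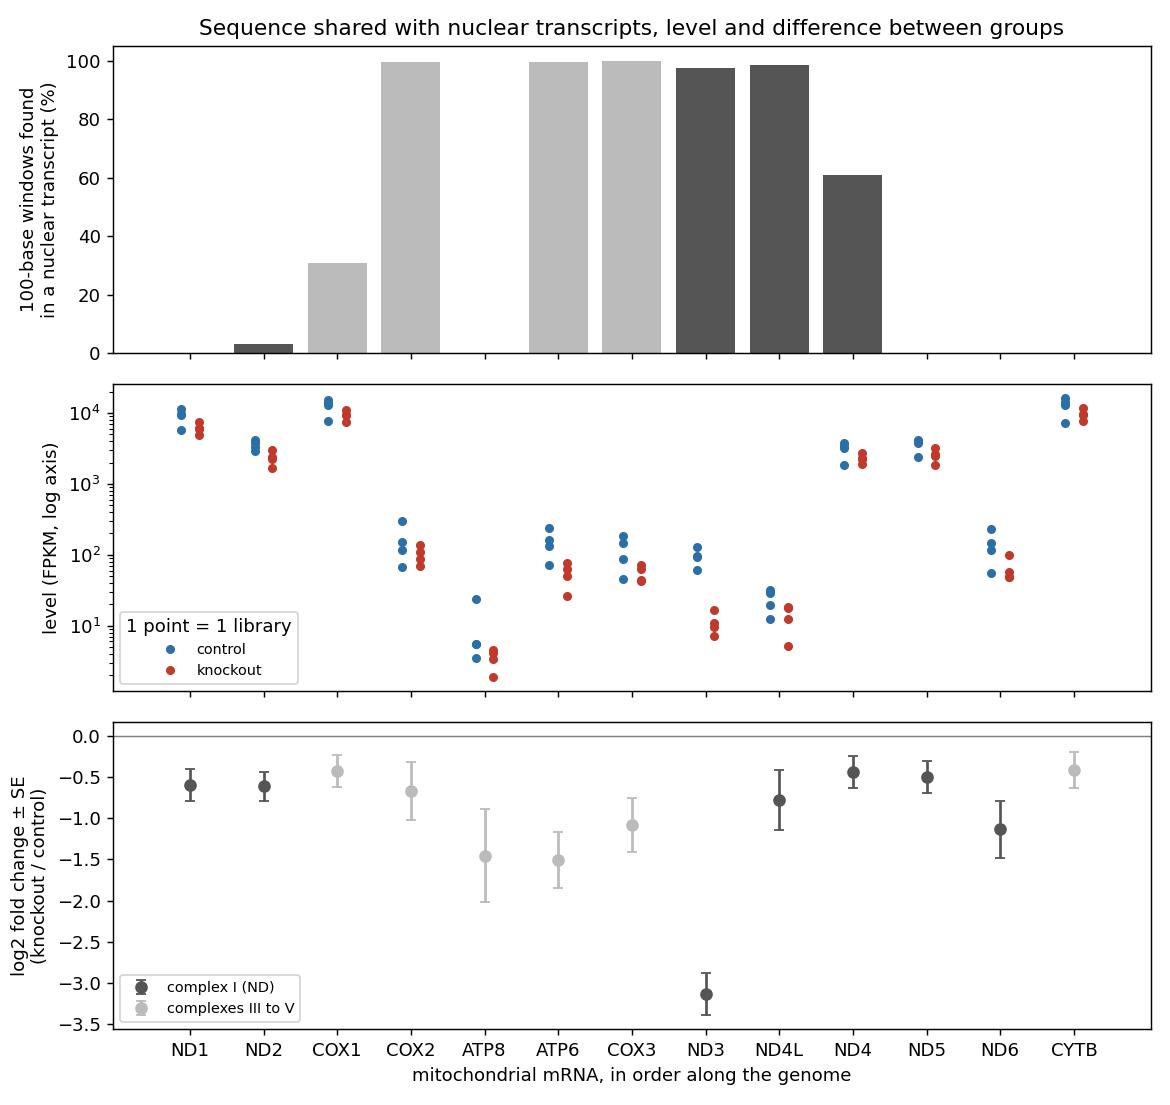
The 13 mitochondrial mRNAs in genome order: the percentage of their 100-base windows found in an annotated nuclear transcript (top), the level in FPKM on a log axis with 1 point per library, 4 controls in blue and 4 knockouts in red (middle), and the edgeR log2 fold change of knockout over control with its SE (bottom). ND3, with 97.6% of windows shared, has the lowest fold change at -3.14, and ND4L, with 98.5% shared, is at -0.78. COX2, COX3 and ATP6, with 99.5% to 99.9% shared, are at -0.67, -1.08 and -1.51. ND1, ND2, ND4, ND5, COX1 and CYTB, with at most 60.8% shared, lie between -0.61 and -0.41. ND6 and ATP8, with no window found in an annotated transcript, are at -1.14 and -1.46. The nuclear stretch opposite ATP8 has no annotation and was not searched.

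ND3, the subunit whose loop borders the ubiquinone pocket, was lower in every knockout library. Its counts were 195, 87, 120 and 133 in knockouts 1 to 4 and 1035, 1094, 1481 and 725 in controls 1 to 4. In CPM these were 5.51, 2.52, 3.36 and 3.80 against 32.5, 34.4, 45.6 and 21.5. The lowest control thus stood well above the highest knockout. The means were 3.80 ± 1.26 and 33.5 ± 9.90 CPM (SD, n = 4 each), a ratio of 8.81, and the log2 fold change of the edgeR fit was -3.14 (SE 0.25).

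ND1, at the base of the ubiquinone pocket, and ND2, a pumping subunit, were lower by less. ND1 had 4545, 5605, 5938 and 7179 CPM in knockouts 1 to 4 and 8950, 11174, 9438 and 5545 CPM in controls 1 to 4 (log2 fold change -0.59, SE 0.20, and -0.32 without the 3 lens-rich libraries). Control 4 lay among the knockouts, and the other 3 controls above all of them. ND2 had 1694, 2315, 2555 and 3125 CPM in the knockouts and 3454, 3958, 4414 and 3011 CPM in the controls (log2 fold change -0.61, SE 0.17). Only knockout 4 reached the level of control 4.

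The pumping subunits ND4 and ND5 showed the smallest differences of the family. ND4 was at 2496, 3115, 3283 and 3711 CPM in the knockouts and 4433, 5335, 4719 and 2561 CPM in the controls (log2 fold change -0.44, SE 0.20, and -0.16 without the 3 lens-rich libraries). Control 4 was below all knockouts but knockout 1. ND5 was at 3200, 4564, 4913 and 5868 CPM in the knockouts and 6790, 7453, 7533 and 4448 CPM in the controls (log2 fold change -0.50, SE 0.19, and -0.30 without the 3 lens-rich libraries). Here too control 4 lay between knockout 1 and knockout 2.

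ND4L and ND6, small subunits beside the pumps, rested on fewer counts. ND4L had 53, 183, 196 and 130 counts in the knockouts and 269, 187, 309 and 126 in the controls, that is 1.5, 5.30, 5.49 and 3.72 CPM against 8.43, 5.88, 9.52 and 3.73 CPM (log2 fold change -0.78, SE 0.36, and -0.52 without knockout 1). Control 4 and knockout 4 were at the same level, and the remaining controls above every knockout. ND6 was at 24.0, 25, 30.4 and 51.4 CPM in the knockouts and 60.2, 122, 76.0 and 29.4 CPM in the controls (log2 fold change -1.14, SE 0.34). Control 2, rich in lens transcript, was the highest, and the log2 fold change of ND6 was -0.75 without it and -0.41 without the 3 lens-rich libraries.

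**Figure D2:**
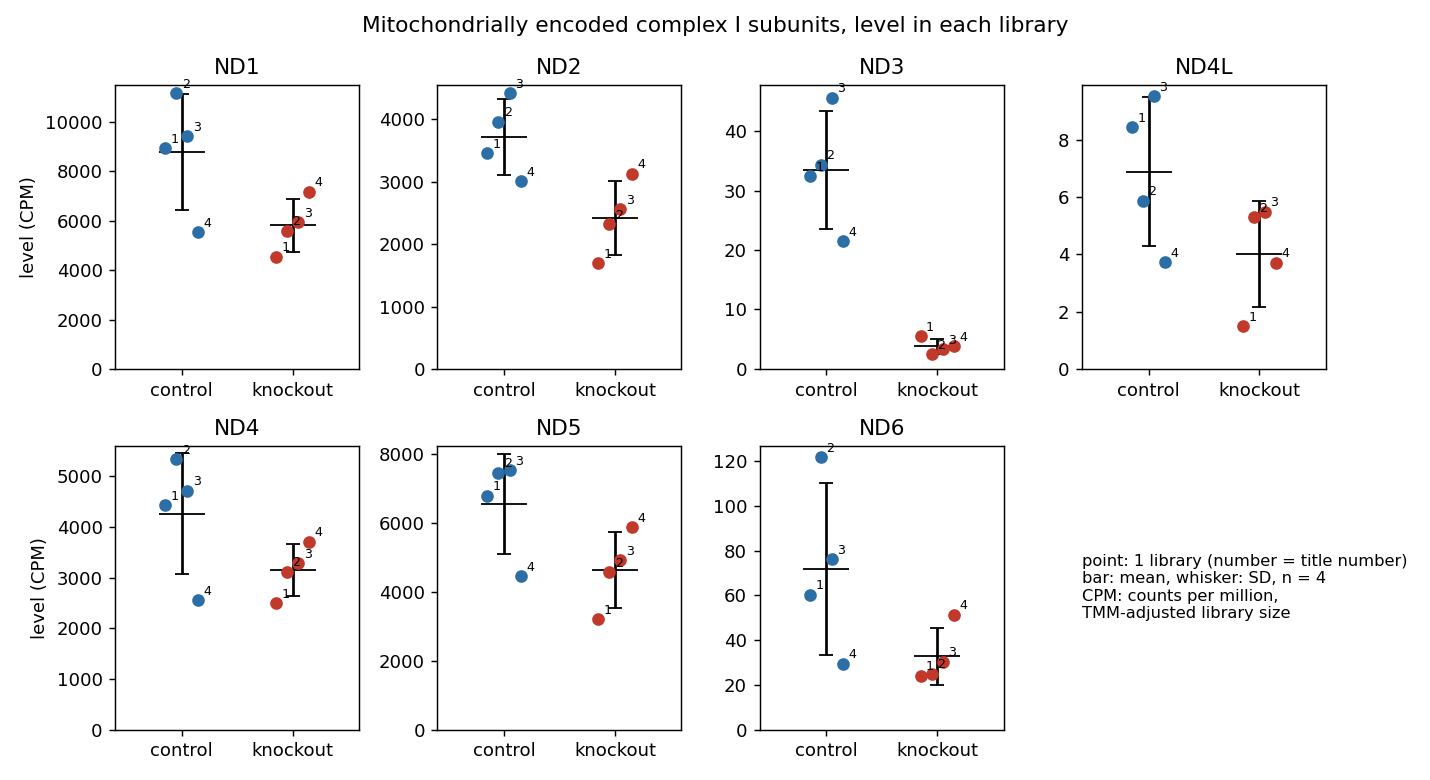
Level of each ND gene in CPM (vertical axis, from 0) in the 4 control and 4 knockout libraries, with the title number beside each point and the mean and SD of the group. For ND3 the knockouts at 2.52 to 5.51 CPM lie apart from the controls at 21.5 to 45.6 CPM, and for the other 6 genes control 4 overlaps with the knockouts.

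All 7 log2 fold changes were negative, with a median of -0.61 against -0.0011 over all 16861 tested genes. Of all tested genes 50.2% had a negative value. The groups did not overlap for 1 of the 7, ND3, and for 11% of all tested genes (5.78% with the knockouts lower). ND3 was also the only member past the threshold of the whole-table edgeR test (adjusted p under 0.05), which 430 genes (2.55% of those tested) passed, 1.2% as higher and 1.35% as lower. With library totals as the only scale 61.2% of the genes called were higher, against 47.2% here. Nothing is read from these counts, since the comparison was used to choose the family. The count was 3 with DESeq2 (ND1, ND2 and ND3), 4 without the filter on low counts (those and ND6) and 7 without control 4, where the share of all tested genes was 8.95%, 2.71% and 18.7%.

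Summed over the 7 genes, ND transcripts made up 1.24%, 1.56%, 1.64% and 2.01% of the counts in knockouts 1 to 4 and 2.38%, 2.76%, 2.60% and 1.55% in controls 1 to 4. Controls 1 to 3 lay above every knockout and control 4 below all of them but knockout 1. The sum was 16067 ± 3289 CPM in the knockouts and 23416 ± 5496 CPM in the controls, a log2 ratio of -0.54, and of -0.31 without the 3 lens-rich libraries. Control 4, the control with the lowest sum, had the most Gnat1 of the controls, and knockout 4, the knockout with the highest sum, the least of the knockouts. Across the 4 controls the sum fell as Gnat1 rose, though controls 1 to 3 were close in Gnat1 at 7383 to 7609 CPM. Other knockouts did not keep this order. Knockout 3, with the most Gnat1 (11725 CPM), had a higher sum than knockouts 1 and 2. Knockout 1, with the lowest sum, had less Gnat1 (9069 CPM) than knockouts 2 and 3. The part of rod content in the sum was not tested. Nearly all of it came from ND1, ND2, ND4 and ND5, and without ND3 the log2 ratio was also -0.54. The other mitochondrial mRNAs also had negative log2 fold changes, 6 of 6, from -1.51 for ATP6, a subunit of ATP synthase, to -0.41 for CYTB, a subunit of complex III. Of these 6, 1 passed the whole-table edgeR test as lower and 0 as higher, beside 2.55% of all tested genes in both directions. The groups overlapped for all 6. COX2 and COX3, like ATP6 with nearly all windows shared with nuclear copies, were at -0.67 and -1.08. COX1, with fewer windows shared, was at -0.43. ATP8, with none found but with the nuclear stretch opposite it not searched, was at -1.46. The part of read placement in these differences was not tested.

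Set against the sum, ND3 was the only member whose share of ND counts did not overlap between the groups. In the knockouts ND1 made up 36.3% ± 1.12 of all ND counts (SD, n = 4), ND5 28.7% ± 1.30, ND4 19.8% ± 0.927 and ND2 15% ± 0.650. In the controls these shares were 37.2% ± 1.95, 28.1% ± 1.04, 18.0% ± 1.16 and 16.2% ± 2.38. The ranges of the groups overlapped for each of them. These shares are of read counts and are not scaled to gene length, so they compare libraries and not genes.

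The share of ND3 was 0.0461%, 0.0161%, 0.0201% and 0.0191% of ND counts in knockouts 1 to 4 and 0.137%, 0.122%, 0.174% and 0.137% in controls 1 to 4. The controls lay above the knockouts without overlap, the mean share was 5.63 times as high, and control 4 stood with the other controls. Knockout 1 was apart from the other knockouts. The share of ND4L was 0.0125% to 0.0339% in the knockouts and 0.0209% to 0.0363% in the controls, and that of ND6 was 0.160% to 0.258% and 0.188% to 0.433%, with overlap in each case. The log2 ratio of the mean shares was -0.25 for ND4L and -0.54 for ND6. For ND4L it was -0.03 without knockout 1, and for ND6 -0.29 without control 2 and -0.10 without the 3 lens-rich libraries. Relative to ND5, which it overlaps, ND6 was at 0.547% to 0.876% in the knockouts and 0.661% to 1.63% in the controls.

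**Figure D3:**
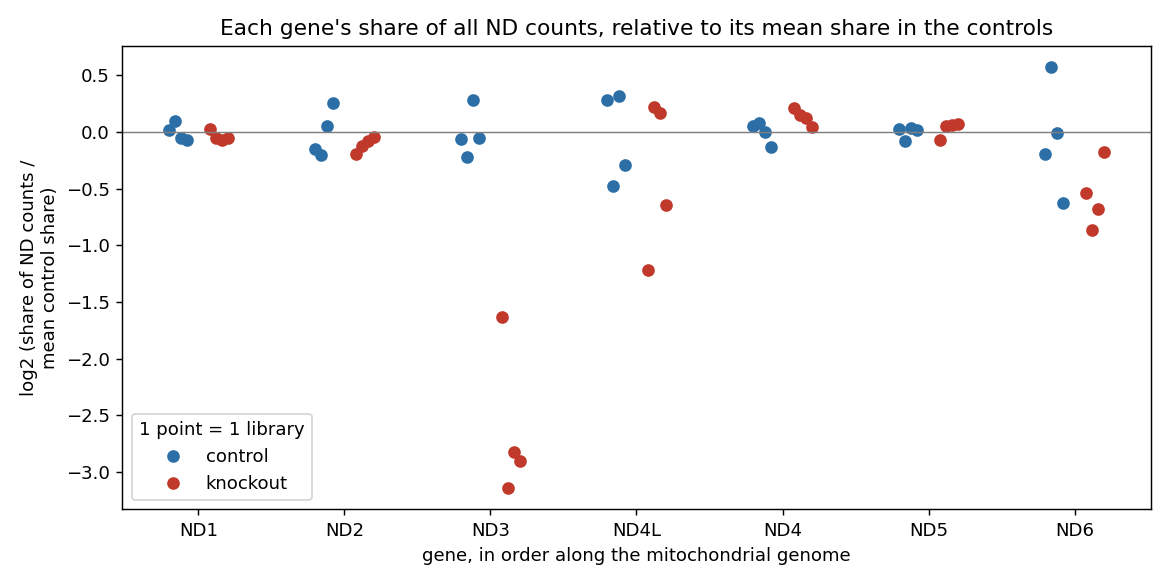
Share of each ND gene in all ND counts of a library, as the log2 ratio to its mean share in the controls (vertical axis), with 1 point per library, controls in blue and knockouts in red. The knockout points of ND3, shares of 0.0161% to 0.0461%, lie below all control points at 0.122% to 0.174%, and the groups overlap for the other 6 genes.

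ND3 was also lower in the knockouts relative to its neighbours on the mitochondrial genome. ND3 counts were 16.3%, 7.50%, 6.69% and 6.82% of those of COX3, the gene before it, in knockouts 1 to 4, and 47.6%, 23.5%, 39.3% and 59.6% in controls 1 to 4. Relative to ND4, ND3 was at 0.0809% to 0.221% in the knockouts and 0.644% to 0.967% in the controls. Relative to ND4L, the next gene, ND3 was at 47.5% to 368% in the knockouts and 385% to 585% in the controls, with knockout 1 close to control 1. The groups did not overlap in any of these 3 ratios. All 3 hold the same ND3 counts, which were used to choose the family, so they describe that difference again and add no support. The ratio of ND4L to COX3, both with copies on chromosome 1, was 4.43% to 15.8% in the knockouts and 4.01% to 12.4% in the controls. That of ATP6 to COX3, also both with such copies, was 50.2% to 104% in the knockouts and 62.8% to 237% in the controls. The groups overlapped in each. The part of read placement in these ratios was not tested.

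Over the 8 libraries ND1, ND2, ND4, ND5 and ND6 had like patterns. Pearson's r of log2 CPM was 0.83 to 0.98 between pairs of these 5 genes. It was 0.59 to 0.85 between ND4L and these 5, and 0.50 to 0.75 between ND3 and each other member. After the group means were removed, r was 0.74 to 0.99 between pairs of the 5 genes. ND4L then had r from 0.37 to 0.78 with the 5, and ND3 from -0.18 to 0.45 with each other member. These values describe 8 points that share libraries and scaling. Among 14670 genes outside the mitochondrial genome with a mean of at least 1 CPM, those most like ND3 by r were 9630001P10Rik (0.99), Col4a3 (0.98), Dixdc1 (0.98), Zfp932 (0.98) and AW146154 (0.98). Each was lower in the knockouts, with log2 fold changes from -1.26 to -0.38, so this r includes the difference between groups. For genes outside the mitochondrial genome r was not computed with the group means removed. Col4a3, a collagen chain of basement membranes, was at 12.3 to 13.5 CPM in the knockouts and 26.5 to 37.9 CPM in the controls. The sum of the other 6 ND genes was followed most closely by Cryzl1 (0.99), Gm5165 (0.99), Fundc2 (0.98), Trak2 (0.98) and Cops2 (0.98). Cops2, for example, was at 113 to 167 CPM in the knockouts and 137 to 225 CPM in the controls, with control 4 again the lowest control.

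The nuclear genome encodes the other 37 subunits of complex I, and their transcripts differed little between the groups. Of the 7 core subunits of the hydrophilic arm none passed the edgeR test, none was at an unadjusted p under 0.05, none passed by DESeq2 or limma-voom, and their log2 fold changes ran from -0.03 to 0.17. Ndufs1, which holds iron-sulphur clusters, had a log2 fold change of 0.08 (SE 0.08, edgeR adjusted p = 0.587). Ndufv1, which binds NADH, had 0.17 (SE 0.08, edgeR adjusted p = 0.251). Of the 30 accessory subunits, which surround and stabilise the core, 1 rose and none fell, with log2 fold changes from -0.51 to 0.45.

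The accessory subunit that rose was Ndufv3, a small protein of the NADH-oxidising module. It was at 81.3, 95.9, 92.7 and 92.8 CPM in knockouts 1 to 4 and 68.9, 65.8, 57.2 and 74.3 CPM in controls 1 to 4. The groups did not overlap, and on the log2 scale Ndufv3 was higher by 0.45 (SE 0.09, edgeR adjusted p = 0.0305). Of the fits that left out 1 library, those without knockout 1 and without control 4 kept the call (elsewhere the adjusted p reached 0.114). It was lost without the 3 lens-rich libraries (log2 fold change 0.34, adjusted p = 0.563) and with the title number as a block (log2 fold change 0.45, adjusted p = 0.0592). Taken over the 37 nuclear subunits, 1 of 37 (2.70%) passed, close to the 2.55% of all tested genes, and the median was 0.02. At an unadjusted edgeR p under 0.05 there were 4, beside 21.3% of all tested genes. No subunit was below the median of the ND genes, and of all 16861 tested genes 780 were. Ndufb4, the lowest subunit at -0.51, was below ND4 and ND5. Without control 4, 8 of the 37 passed, beside 18.7% of all tested genes.

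Complex I is built in steps by assembly factors, which insert the ND proteins and then leave. Of the 17 listed, 16 had a row and none passed the edgeR test. At an unadjusted p under 0.05 there were 3, beside 21.3% of all tested genes, and none by DESeq2 or limma-voom with adjustment. The median log2 fold change was -0.16. Tmem126b, which works on an early membrane module, had -0.30 (SE 0.12, edgeR adjusted p = 0.162), and Ndufaf3 had 0.25 (SE 0.11, edgeR adjusted p = 0.204). Without control 4, 3 of the 16 passed, beside 18.7% of all tested genes.

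Proteins of nuclear origin also transcribe mitochondrial DNA and cut, protect and degrade its RNA. Of 15 genes of mitochondrial transcription and genome maintenance 1 fell and none rose, with a median log2 fold change of -0.09. Mterf3, a factor that restrains mitochondrial transcription, was at 37.9, 35.2, 37.6 and 37.3 CPM in knockouts 1 to 4 and 44.3, 49.3, 50.1 and 46.3 CPM in controls 1 to 4. Every knockout was below every control, and Mterf3 fell by 0.36 on the log2 scale (SE 0.08, edgeR adjusted p = 0.0381). Leaving out any of the 7 libraries other than control 4 lost this call (largest adjusted p = 0.125), and it was also lost without the lens-rich libraries (log2 fold change -0.29, adjusted p = 0.619), with library totals as the only scale (adjusted p = 0.0519), on FPKM (adjusted p = 0.0671 and 0.0628 with the larger and smaller pseudocount) and with the title number as a block (log2 fold change -0.36, adjusted p = 0.0731).

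Of 19 genes of mitochondrial RNA processing and stability none passed the edgeR test, with 4 at an unadjusted p under 0.05 (21.3% of all tested genes) and a median log2 fold change of -0.02. Pnpt1, the mitochondrial polynucleotide phosphorylase, was at 32.5 to 41.5 CPM in the knockouts and 45.1 to 46.9 CPM in the controls (log2 fold change -0.31, SE 0.09, edgeR adjusted p = 0.0834), and DESeq2 called it. Lrpprc, which stabilises mitochondrial mRNAs, had a log2 fold change of -0.19 (SE 0.08, edgeR adjusted p = 0.182). Of these 34 genes of transcription and RNA handling together 1 (2.94%) passed, near the share of all tested genes, and without control 4 it was 8, beside 18.7% of all tested genes.

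**Figure D4:**
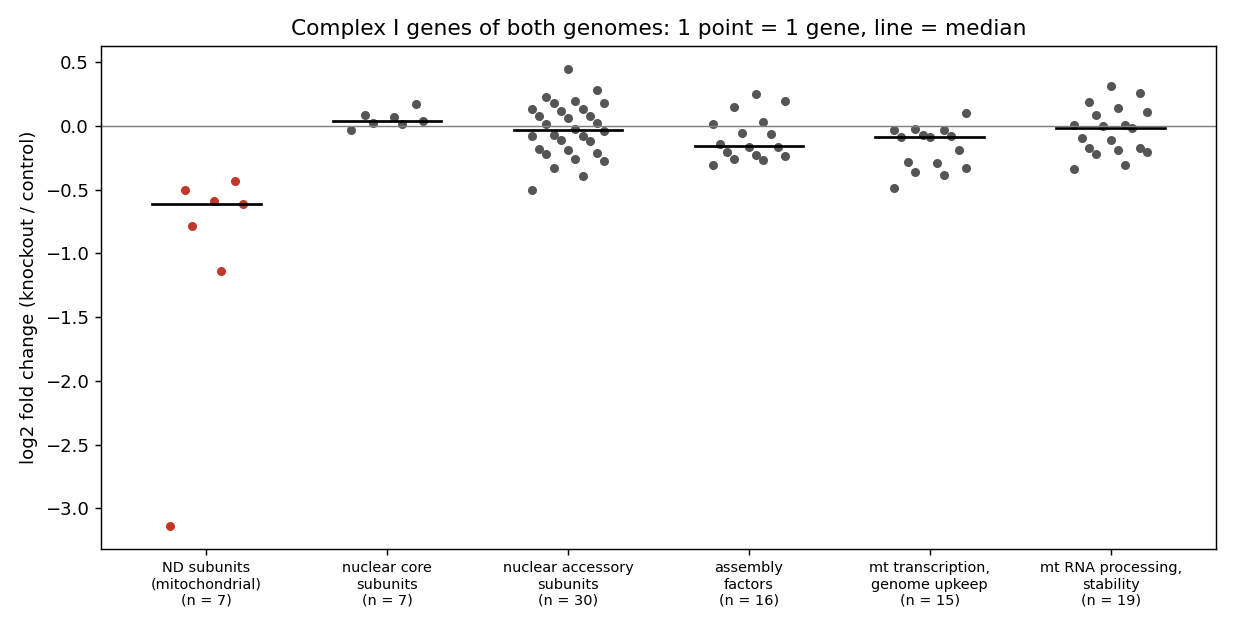
Log2 fold change of knockout over control (vertical axis) for the 7 ND genes in red and for the nuclear genes of complex I and mitochondrial RNA in grey, with 1 point per gene and a line at the median of each list. The ND genes lie between -3.14 and -0.44 with a median of -0.61, and the nuclear lists have medians from -0.16 to 0.04.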

How the data were processed

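Gene counts of 8 polyadenylated RNA libraries of mouse retina were analysed. Per the submitters' processing notes fastp, HISAT2 and HTSeq were used with the mm10 build. Their versions, the annotation, the strand setting and any filter are not stated there. Whole read counts were deposited by the authors for 25477 genes, and their deposited FPKM equal those counts over library total and gene length (largest deviation 7.34e-08%). Columns were matched to samples by title. edgeR 4.0.16 in R 4.3.3 compared knockout with control on all genes that filterByExpr kept at a minimum count of 10 and a total of 15, with TMM factors, a quasi-likelihood test and Benjamini-Hochberg adjustment over 16861 genes. P-values are two-sided, with a threshold of 0.05. The SE is the absolute log2 fold change over the square root of F. CPM use the TMM-adjusted library size, and correlations use log2 CPM with a prior count of 2. All 7 ND genes passed the filter in both groups.

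On simulated data with changed genes among 16641, the test recovered 33.3%, 77.3% and 98.5% of 1.5-fold, 2-fold and 4-fold changes. No pair of libraries of a group agreed within counting noise (chi-square per degree of freedom 20.6 to 110). Windows of 50, 100 and 150 bases of each mitochondrial mRNA were searched in the GENCODE M21 transcripts of nuclear genes on both strands, and pairs were aligned with Biopython 1.88. The named nuclear genes are, per list, those past the threshold (at most 4), or else the 2 of smallest p. Members and lists were chosen with earlier results of these data known. Alternatives were RLE and library-size scaling, TMM without mitochondrial genes, other filters, DESeq2 1.42.0, limma-voom and limma-trend (limma 3.58.1) on FPKM with pseudocounts of 1 and 0.1, fits without each library or without the 3 lens-rich ones, and a block. The members with the fewest counts, ND4L and ND3, rest on 53 to 1481 reads a library. The summed level of rod markers is not reported here, and Gnat1 stands for them, chosen after its values were seen.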

Additional observations from a re-analysis of the deposited data

Results flagged for a closer look

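A library far from the other 3 of its group was looked for in 30 groups of 4 values, the CPM and the share of ND counts of each member and the summed CPM, and chance marks about 1 in 20 such groups. Knockout 1 had a share of ND3 of 0.0461% of ND counts, with 0.0161% to 0.0201% in the other knockouts. In the same library the share of ND5 was 26.7%, with 29.2% to 29.4% in the other knockouts. Control 2 had a share of ND5 of 26.5%, with 28.5% to 28.7% in the other controls. Knockout 1 had the lowest ND sum of the 8 libraries, and control 2 the highest ND sum and the most lens transcript. Their part in these shares was not tested.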

How the results depend on the processing

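The log2 fold changes of the 7 ND genes were negative under all 19 alternatives, and ND3 was the lowest of the 7 under each. ND3 ranged from -3.38 to -2.96 over the fits that left out 1 library and from -3.14 to -2.76 under the others, and its share of ND counts from -2.95 to -2.33 on the log2 scale. Without the 3 lens-rich libraries the log2 fold changes were -0.32 for ND1, -0.43 for ND2, -2.76 for ND3, -0.16 for ND4, -0.79 for ND4L, -0.30 for ND5, -0.41 for ND6 (share -0.10) and -0.31 for the sum. For ND6, leaving out single libraries gave -1.44 to -0.75 for its level and -0.70 to -0.29 for its share. The cause was not tested. Counts of called genes depended on the libraries. The 430 genes of the whole table became 690 without the filter, 1392 with DESeq2, 228 with log2(FPKM + 1), 15 without the lens-rich libraries and 108 to 3209 with 1 library left out (108 without knockout 3, 3209 without control 4). The 1 nuclear subunit became 0 without the lens-rich libraries and 0 to 8 with 1 library left out. The 0 assembly factors became 0 to 3. The 1 transcription or RNA factor became 0 with library size only, 0 on either FPKM scale, 2 with DESeq2, 0 without the lens-rich libraries and 0 to 8 with 1 library left out. The title numbers did not pair the libraries: same-numbered libraries had correlations of 0.21, -0.04, 0.12 and 0.01, and knockout 1 alone correlated best with its own number. With the replicate block 228 genes, 0 nuclear subunits and 0 transcription or RNA factors were called, and ND3 was at -3.13.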
